A study of Mus musculus with 2 samples.

Results

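Metabotropic glutamate receptors are G protein-coupled receptors for glutamate, the main excitatory transmitter of the hippocampus. The genes described here are Grm2, Grm3, Grm4, Grm5, Grm7 and Grm8, which were taken by name and are 6 of the 32285 genes counted. They were measured in nuclear RNA of mouse hippocampus in 1 library from Capza2+/- mice, heterozygous for a knockout of Capza2, and 1 library from wild-type mice. Capza2 encodes the alpha-2 subunit of the actin filament capping protein. The labels describe the nuclei as a mixture of neurons and glia and give no other treatment; age, sex, the design of the allele and the number of mice behind a library are not given in the sources used here. The series set out to compare the proportions of cell populations between the genotypes.

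Grm5 belongs to group I, which couples to Gq and phospholipase C and sits mostly at the edge of the postsynaptic density, where Homer proteins tether it. Grm2 and Grm3 form group II, and Grm4, Grm7 and Grm8 belong to group III; both groups couple to Gi/o, lower cyclic AMP and mostly act on the presynaptic side, where they restrain transmitter release. Grm3 is also known from glia, and Grm7 is known in hippocampal interneuron circuits for being recruited to the terminals that face cells carrying the adhesion protein Elfn1.

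There were 7801 barcodes in the Capza2+/- library and 6512 in the wild-type library, with medians of 5444 unique molecular identifiers (UMIs) per barcode in Capza2+/- and 6789 in wild type. After filters on genes detected, mitochondrial UMIs and doublets, 6795 Capza2+/- and 6094 wild-type nuclei remained, and 10 barcodes occurred in both sets. Levels are in CPM, the usual count scaled by library total: here the UMIs of a gene summed over the nuclei of a class, scaled to the total UMIs of those nuclei. A single library stands for each genotype. The differences between genotypes therefore have no replicate check and no p-value, and every interval is a 95% interval for counting error only, which leaves out the spread between nuclei and between mice. The targeted gene, Capza2 on chromosome 6 (GRCm38, 17636234 to 17666972, plus strand), stood at 67.9 CPM in the Capza2+/- library and 86.3 CPM in the wild-type library. Its log2 ratio, Capza2+/- over wild type, was -0.35 (-0.41 to -0.28), and it was lower in 12 of 12 classes compared.

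Nuclei were clustered without the receptor genes and named from marker lists. Levels were compared in 12 classes, 8 neuronal and 4 glial, of 100 or more nuclei per library. The named neuronal classes were dentate granule, CA1 pyramidal, CA3 pyramidal and inhibitory, and the glial classes were astrocytes, oligodendrocytes, oligodendrocyte precursors and microglia, each a name for nuclei like that type. The other 4 neuronal classes carried general excitatory markers and kept their cluster numbers. Cluster 16 met the naming rule for subicular, entorhinal or cortical excitatory nuclei but is given by number here. The 9 markers of that list summed in it to 6557 CPM in Capza2+/- and 7108 CPM in wild type. In CA1 they summed to 1035 CPM in Capza2+/- and 1015 CPM in wild type, and in CA3 to 2499 and 2385 CPM. Clusters 8, 10 and 11 met no regional name. Cluster 8 was led by Npsr1, Pdzrn3 and Tshz2, cluster 10 by Ccbe1, Cpne7 and Cpne4, cluster 11 by Fras1, Ndst4 and Rxfp1, and cluster 16 by Vwc2l, Cntn6 and Tshz2. Cluster 17 (96 Capza2+/- and 144 wild-type nuclei) and cluster 21 (41 Capza2+/- and 58 wild-type nuclei), also excitatory, are described by level only.

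The 6 genes are spread over 5 chromosomes in GRCm38 coordinates. Grm5 (ENSMUSG00000049583) lies on chromosome 7 from 87584168 to 88134907 on the plus strand. Grm2 (ENSMUSG00000023192) lies on chromosome 9 from 106643095 to 106656082, and Grm3 (ENSMUSG00000003974) on chromosome 5 from 9485541 to 9725170, both on the minus strand. Grm4 (ENSMUSG00000063239) lies on chromosome 17 from 27422387 to 27521403, on the minus strand. Grm7 (ENSMUSG00000056755) and Grm8 (ENSMUSG00000024211) are on chromosome 6 with Capza2. Grm7 spans 110645581 to 111567230 on the plus strand, 93 Mb from Capza2, and Grm8 spans 27275119 to 28135178 on the minus strand, 9.61 Mb from it. Grm2 is 13 kb long, and Grm7 is 922 kb long. The libraries were made with a 3′ kit, per the labels' protocols, and the counts are not per length, so CPM levels are compared between classes for 1 gene and not between genes.

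Among the classes compared, Grm5 was higher in each of the 8 neuronal classes than in the 4 glial ones. In cluster 11 it had 5572 CPM in the Capza2+/- library and 5010 CPM in the wild-type library, the highest of the 12 classes in both. CA1 pyramidal nuclei came next, with 4077 CPM in Capza2+/- and 4005 CPM in wild type. Cluster 10, CA3, cluster 16, inhibitory and dentate granule nuclei followed between 2531 and 3229 CPM, where the values of CA3 and cluster 16 overlapped between the libraries. Oligodendrocyte precursors held 1432 CPM in Capza2+/- and 1658 CPM in wild type, and astrocytes 567.6 CPM in Capza2+/- and 601.7 CPM in wild type. Precursors were thus the glial class with the most Grm5.

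Droplets also pick up free RNA, so the share of nuclei with at least 1 UMI was read against microglia, a class taken here to lack the neuronal genes. Nuclei were thinned to 1000 UMIs each for this, since the median depth of kept nuclei was 1464 UMIs in Capza2+/- and 1479 UMIs in wild-type microglia, against 11070 UMIs in Capza2+/- and 9831 UMIs in wild-type CA1. At that depth Grm5 was found in 13.4% of Capza2+/- and 15.2% of wild-type microglia. Oligodendrocytes, at 11.4% in Capza2+/- and 15.4% in wild type, stood at that background. Astrocytes, at 20.8% in Capza2+/- and 23.1% in wild type, were higher, but their counting intervals overlapped with those of microglia in both libraries, and precursors, at 64.3% in Capza2+/- and 72.2% in wild type, lay far above it. CA1 nuclei reached 96.7% in Capza2+/- and 96.9% in wild type.

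**Figure D1:**
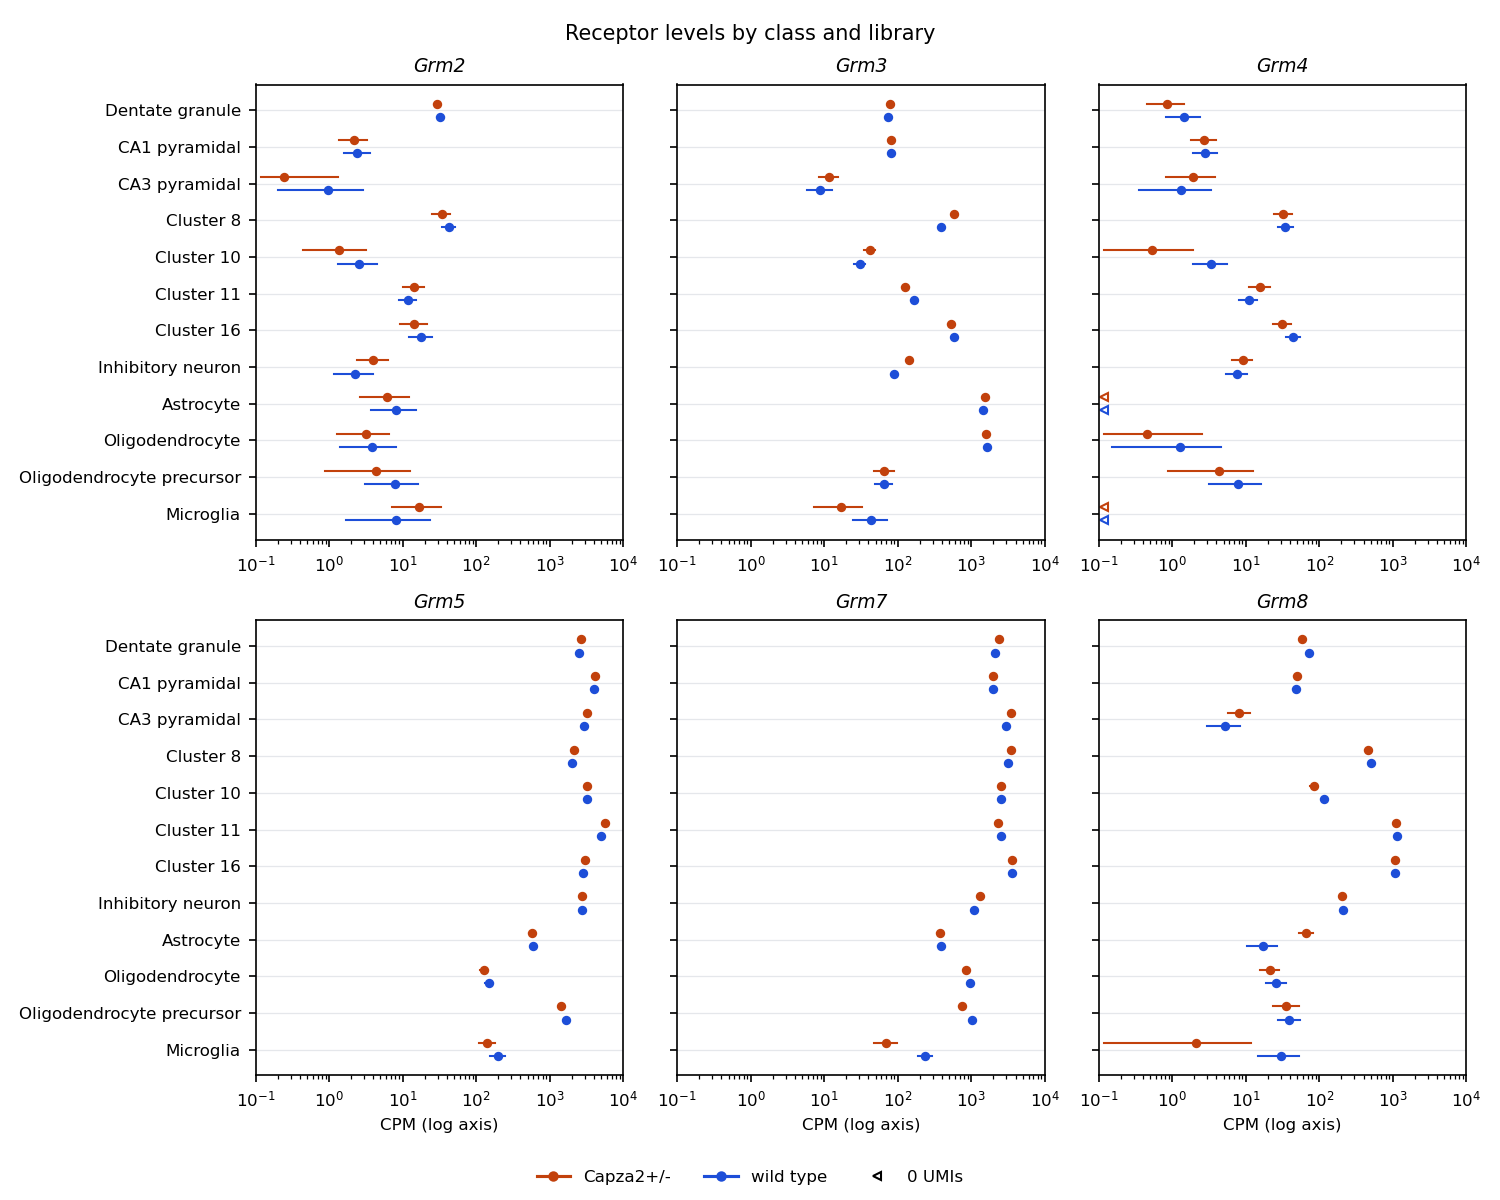
Level of each receptor gene in the 12 classes, in CPM on a log axis, with the Capza2+/- library (orange, upper point) above the wild-type library (blue, lower point); bars are 95% Poisson intervals for counting error and open triangles mark classes with 0 UMIs. Grm5 and Grm7 were high in all 8 neuronal classes, Grm3 was highest in oligodendrocytes and astrocytes, and Grm4 and Grm8 were highest in clusters 8, 11 and 16.

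Grm2, a group II receptor known as a presynaptic autoreceptor of granule cell axons, was sparse, with 748 UMIs in the Capza2+/- library and 707 UMIs in the wild-type library. Cluster 8 had the highest level, 33.8 CPM in Capza2+/- and 42.2 CPM in wild type, and dentate granule nuclei the next, 29.8 CPM in Capza2+/- and 32.5 CPM in wild type. Granule nuclei held most of its UMIs, 60.6% of them in Capza2+/- and 50.4% in wild type. CA1 nuclei had 2.16 CPM in Capza2+/- and 2.43 CPM in wild type. CA3 nuclei had 0.240 CPM in Capza2+/- and 0.977 CPM in wild type (1 UMI in Capza2+/- and 3 UMIs in wild type). Both pyramidal fields thus lay under the granule nuclei in both libraries, and no fold is given for CA3 because of its few UMIs.

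At 1000 UMIs per nucleus Grm2 was detected in 3.04% of Capza2+/- and 2.80% of wild-type granule nuclei. Microglia gave 2.40% in Capza2+/- and 0.476% in wild type, from 8 UMIs in Capza2+/- and 3 UMIs in wild type without thinning. The counting intervals of granule nuclei and microglia overlapped in both libraries, so the classes were not separated at this depth. Without thinning, Grm2 was found in 18.6% of Capza2+/- and 20.1% of wild-type granule nuclei, which are deeper, against 2.53% of Capza2+/- and 1.31% of wild-type microglia.

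Grm3, the other group II receptor, had its highest levels in glia. Oligodendrocytes had 1581 CPM in Capza2+/- and 1634 CPM in wild type, and astrocytes 1531 CPM in Capza2+/- and 1451 CPM in wild type. At 1000 UMIs per nucleus it was found in 73.5% of Capza2+/- and 76.3% of wild-type oligodendrocytes. The share was 73.4% of Capza2+/- and 69.2% of wild-type astrocytes, against 1.37% of Capza2+/- and 1.91% of wild-type microglia. The level in oligodendrocytes was 3.11 on the log2 scale above that of all other nuclei, averaged over the libraries. Oligodendrocyte precursors did not share it, at 65.7 CPM in Capza2+/- and 64.5 CPM in wild type.

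Among neurons, Grm3 reached high levels in some classes only. Cluster 17 had 856.2 CPM in Capza2+/- and 723.7 CPM in wild type. In cluster 8 there were 583.1 CPM in Capza2+/- and 392.1 CPM in wild type, and in cluster 16 521.7 CPM in Capza2+/- and 573.3 CPM in wild type. Dentate granule nuclei had 77.5 CPM in Capza2+/- and 74.1 CPM in wild type, and CA1 nuclei 82.2 CPM in Capza2+/- and 82.1 CPM in wild type. These excitatory classes thus lay far under the numbered clusters just named. CA3 nuclei had 11.6 CPM in Capza2+/- and 8.79 CPM in wild type, with a thinned share of 1.37% in Capza2+/- and 1.45% in wild type that lay at the microglial background. Of all Grm3 UMIs, oligodendrocytes and astrocytes held 40.7% in Capza2+/- and 34.5% in wild type, while the 6 numbered clusters held 24.6% in Capza2+/- and 33.2% in wild type.

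Grm4, a group III receptor best known from cerebellar granule cell terminals, had the fewest UMIs, 262 UMIs in Capza2+/- and 377 UMIs in wild type. Cluster 16, at 31.3 CPM in Capza2+/- and 43.9 CPM in wild type, and cluster 8, at 32.5 CPM in Capza2+/- and 34.6 CPM in wild type, were highest and could not be put in order. Cluster 11 followed with 15.6 CPM in Capza2+/- and 10.9 CPM in wild type, and inhibitory nuclei with 9.10 CPM in Capza2+/- and 7.62 CPM in wild type. Dentate granule nuclei had 0.855 CPM in Capza2+/- and 1.46 CPM in wild type. No UMI was counted in astrocytes or microglia of either library. A count of 0 allows up to 2.31 CPM in Capza2+/- and 2.69 CPM in wild-type astrocytes, and up to 6.27 CPM in Capza2+/- and 8.13 CPM in wild-type microglia.

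Grm7, the group III receptor placed in the active zone of many terminals, was present in each of the 8 neuronal classes compared. Cluster 16 had 3632 CPM in Capza2+/- and 3601 CPM in wild type. Cluster 8 had 3480 CPM in Capza2+/- and 3205 CPM in wild type, and CA3 nuclei 3467 CPM in Capza2+/- and 2995 CPM in wild type. The small cluster 21 stood above these, with 4190 CPM in Capza2+/- and 4305 CPM in wild type. CA1 nuclei had 1981 CPM in Capza2+/- and 1943 CPM in wild type, and inhibitory nuclei had the lowest level of the 8, 1307 CPM in Capza2+/- and 1094 CPM in wild type. So the field with the most Grm5 among the named classes, CA1, had less Grm7 than CA3 or granule nuclei in both libraries.

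Grm7 was also found in oligodendrocytes, at 853.5 CPM in Capza2+/- and 958.7 CPM in wild type. At 1000 UMIs per nucleus 39.2% of Capza2+/- and 46.2% of wild-type oligodendrocytes held a UMI, against 6.85% of Capza2+/- and 7.62% of wild-type microglia. Oligodendrocytes held 6.68 Grm7 UMIs per Grm5 UMI in Capza2+/- and 6.41 in wild type, and microglia 0.485 in Capza2+/- and 1.19 in wild type. The highest neuronal ratio, in cluster 21, was 1.73 in Capza2+/- and 1.74 in wild type. The wild-type microglial ratio rests in part on 1 nucleus that held 52 of 86 Grm7 UMIs. The part of free RNA in the oligodendrocyte level was not tested. Astrocytes, at 6.92% in Capza2+/- and 6.69% in wild type, lay at the microglial share, and their 373 CPM in Capza2+/- and 384.1 CPM in wild type came from 48 Capza2+/- and 52 wild-type nuclei.

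Grm8, a group III receptor with a regionally restricted pattern, was concentrated in the numbered excitatory clusters. Cluster 11 had 1090 CPM in Capza2+/- and 1146 CPM in wild type, and cluster 16 1065 CPM in Capza2+/- and 1085 CPM in wild type. The small clusters were alike, cluster 17 with 1125 CPM in Capza2+/- and 1067 CPM in wild type and cluster 21 with 1122 CPM in Capza2+/- and 1051 CPM in wild type. These 4 clusters thus stood at about the same level, far above the named classes among the 12 compared. Cluster 8 followed with 454.4 CPM in Capza2+/- and 496.8 CPM in wild type, and inhibitory nuclei with 203.5 CPM in Capza2+/- and 213.1 CPM in wild type. Dentate granule nuclei had 58.2 CPM in Capza2+/- and 73.1 CPM in wild type, and CA1 nuclei 49.8 CPM in Capza2+/- and 48.7 CPM in wild type. In CA3, with 8.18 CPM in Capza2+/- and 5.21 CPM in wild type, the thinned share of 0.457% in Capza2+/- and 0.483% in wild type lay near the microglial 0.343% in Capza2+/- and 0.476% in wild type. The 6 numbered clusters held 68.7% of all Grm8 UMIs in Capza2+/- and 77.0% in wild type, and cluster 11 alone 26.2% in Capza2+/- and 36.3% in wild type.

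**Figure D2:**
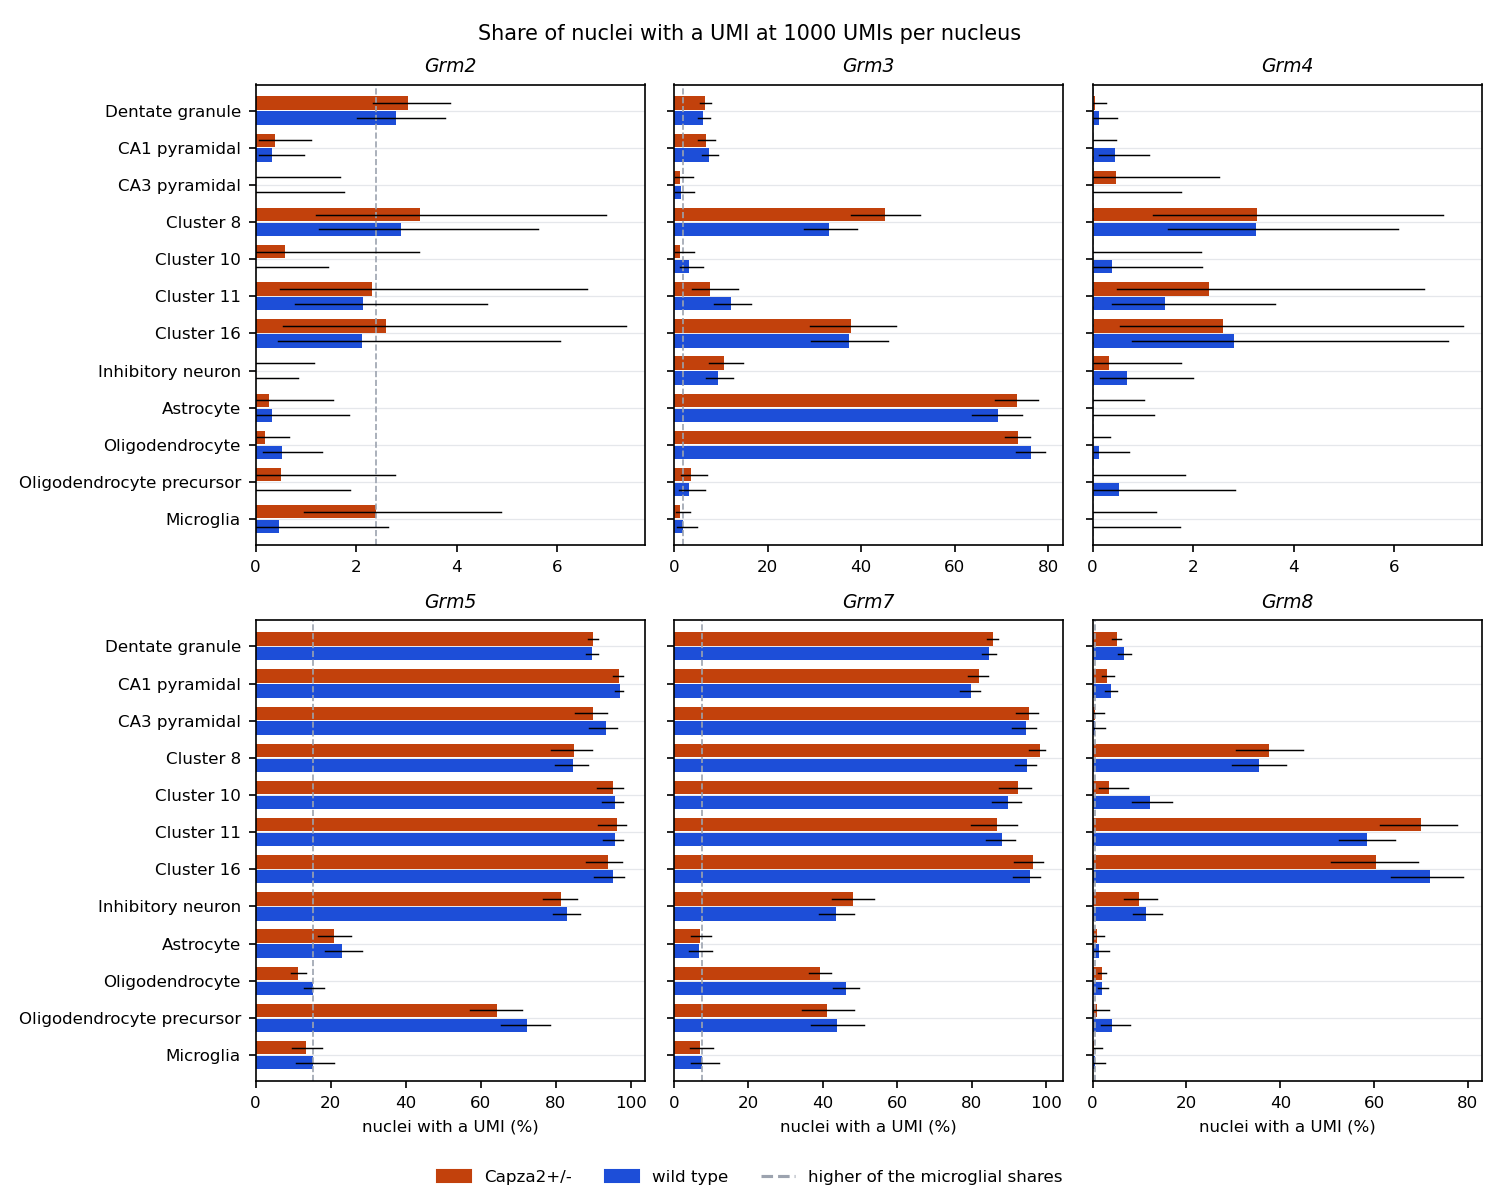
Share of nuclei with at least 1 UMI of each receptor gene after thinning every nucleus to 1000 UMIs, in percent, with the Capza2+/- library (orange) above the wild-type library (blue); bars are exact Clopper-Pearson 95% intervals and the dashed line is the higher of the microglial shares. Grm3 reached 73.5% of Capza2+/- and 76.3% of wild-type oligodendrocytes, Grm7 39.2% of Capza2+/- and 46.2% of wild-type ones, and Grm8 was at or near the microglial share in CA3.

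The members' patterns over the 12 classes were set side by side as log2(CPM + 10), averaged over the libraries; the points share the libraries and differ in depth, so Pearson's r is a description. Grm4 and Grm8 had the highest r of the 15 pairs, 0.857, followed by Grm5 and Grm7 at 0.793. Grm3 and Grm5 had the lowest, -0.356. Among the 12 classes, the presynaptic group III receptors Grm4 and Grm8 were thus both highest in clusters 8, 11 and 16. Grm3 had its peak in the glia where Grm5 was low. Clusters 17 and 21, outside the 12, were about as high in Grm8 as cluster 11 but lower in Grm4 than clusters 8 and 16. Cluster 17 had 7.27 CPM of Grm4 in Capza2+/- and 13.4 CPM in wild type. Cluster 21 had 6.31 CPM of Grm4 in Capza2+/- and 16.0 CPM in wild type.

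Among 9005 other genes with at least 1000 UMIs (9006 for Grm4, which has fewer UMIs itself), those most like each member were ranked in the same way. Grm5 was closest to Jazf1 (r = 0.990), Fam155a (0.987), Osbpl6 (0.986), Unc80 (0.985) and Lrrc7 (0.983). For Grm2 they were Atp2b4 (r = 0.929), Spint2 (0.897), Syt10 (0.881), Kcnj9 (0.848) and Syt5 (0.839). Grm3 was closest to Lurap1 (r = 0.90), Mccc1 (0.891), Fdft1 (0.884), Arl13b (0.852) and Plekhb2 (0.849). Unc80 is a subunit of the sodium leak channel complex and Kcnj9 a subunit of G protein-gated potassium channels, which Gi/o-coupled receptors open. With Grm4, the closest were Npsr1 (r = 0.947), Vwc2l (0.946), Atp10a (0.919), Sgpp2 (0.918) and Tshz2 (0.913), of which Npsr1, Vwc2l and Tshz2 also led cluster 8 or 16. Grm7 was closest to Dync1i1 (r = 0.951), Jakmip2 (0.945), Snapc4 (0.933), C2cd5 (0.931) and Glt1d1 (0.931). Grm8 was closest to Efna5 (r = 0.941), Coro6 (0.908), Sh3bgrl2 (0.897), Kcnt1 (0.894) and Cdh22 (0.894). Efna5 encodes an ephrin and Kcnt1 a sodium-activated potassium channel.

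Over all nuclei, none of the 6 members passed 1.5-fold between the genotypes, where 1.14% of 16178 genes with at least 100 UMIs were that much higher and 0.983% that much lower in Capza2+/-. Grm5 had 2932 CPM in Capza2+/- and 2994 CPM in wild type, a log2 ratio of -0.03 (-0.04 to -0.02). Grm7 had 2217 CPM in Capza2+/- and 2128 CPM in wild type, a ratio of 0.06 (0.05 to 0.07). Grm3 had 242.3 CPM in Capza2+/- and 227.5 CPM in wild type, a ratio of 0.09 (0.06 to 0.13). These 3 stood within 0.10 of 0 on the log2 scale.

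Grm4 and Grm8 stood apart, both lower in Capza2+/-. Grm4 had 4.70 CPM in Capza2+/- and 7.04 CPM in wild type, a log2 ratio of -0.58 (-0.82 to -0.35), just inside the 1.5-fold limit. Grm8 had 192 CPM in Capza2+/- and 269.9 CPM in wild type, a log2 ratio of -0.49 (-0.53 to -0.46). The other sparse member, Grm2, had 13.4 CPM in Capza2+/- and 13.2 CPM in wild type, a ratio of 0.02 (-0.13 to 0.17).

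The clusters richest in Grm8 and Grm4 made up a smaller part of the Capza2+/- library. Cluster 11 held 1.91% of Capza2+/- and 4.60% of wild-type nuclei. Cluster 8 held 2.71% in Capza2+/- and 4.54% in wild type, and cluster 16 1.71% in Capza2+/- and 2.33% in wild type. Dentate granule nuclei, low in both genes, held 30.1% in Capza2+/- and 24.2% in wild type. When each of the 12 classes was given the same weight in both libraries, the log2 ratio of Grm8 was -0.10 (-0.15 to -0.06), from 131.6 CPM in Capza2+/- and 141.3 CPM in wild type. That of Grm4 became -0.21 (-0.48 to 0.06), an interval that includes 0. Grm5 became 0.04 (0.03 to 0.05), Grm7 0.07 (0.06 to 0.09), Grm3 0.02 (-0.03 to 0.07) and Grm2 -0.11 (-0.29 to 0.07). Capza2 itself kept its difference, at -0.41 (-0.50 to -0.32). These weighted ratios cover the 12 classes only. They leave out small numbered clusters rich in Grm8, the choroid plexus class and the mixed and unnamed nuclei. Classes are also not weighted by their UMIs, and wild-type Grm8 was 269.9 CPM over all nuclei against 141.3 CPM weighted. The change in Grm8 from -0.49 to -0.10 thus mixes these steps with class shares, whose part alone was not tested.

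**Figure D3:**
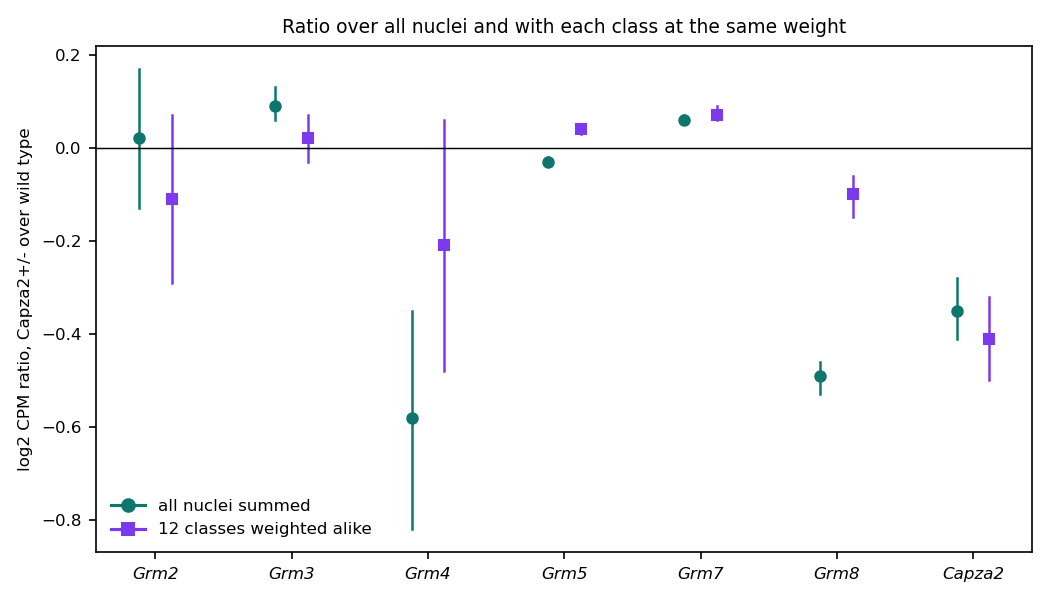
Log2 ratio of CPM, Capza2+/- over wild type, for the 6 receptor genes and Capza2, with all nuclei summed (green circles) and with the 12 classes given the same weight in both libraries (purple squares); bars are 95% intervals for counting error. Grm8 stood at -0.49 over all nuclei and at -0.10 with classes weighted alike, while Capza2 stood at -0.35 and -0.41.

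Within classes, 46 of the 72 pairs of a member and a class had at least 100 UMIs over both libraries, and 3 of the 46 passed 1.5-fold. Grm3 was higher in Capza2+/- inhibitory nuclei, where 0.839% of all genes were that much higher, and Grm8 was higher in Capza2+/- astrocytes, where 1.79% were. Grm7 was lower in Capza2+/- microglia, where 2.79% of all genes were that much lower. No member passed the limit in the opposite direction in these 3 classes, where 1.05% (inhibitory) and 1.18% (astrocytes) of all genes were that much lower and 2.94% (microglia) that much higher. No member passed it in the other 9 classes either. There the shares of all genes past the limit, higher and then lower in Capza2+/-, were 0.917% and 0.747% in dentate granule nuclei, 0.775% and 1.12% in CA1, and 0.522% and 1.8% in CA3. They were 1.17% and 2.12% in cluster 8, 1% and 2.97% in cluster 10, 0.84% and 2.35% in cluster 11, and 1.62% and 2.01% in cluster 16. In oligodendrocytes they were 1.5% and 0.886%, and in oligodendrocyte precursors 5.68% and 7.52%. Each of the 3 rests in part on a few nuclei, and the values without the 3 nuclei richest in the gene in each library, a choice made after the values were seen, are given with it.

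Grm8 in astrocytes had 85 UMIs in 9 Capza2+/- nuclei and 19 UMIs in 14 wild-type nuclei, or 65.4 CPM in Capza2+/- and 17.0 CPM in wild type, a log2 ratio of 1.94 (1.21 to 2.74). A single Capza2+/- nucleus held 47 of the UMIs and the richest 3 held 77. Without those 3 nuclei in each library the levels were 6.52 CPM in Capza2+/- and 11.2 CPM in wild type and the ratio -0.78 (-2.28 to 0.63). The 8 general excitatory markers summed to 1162 CPM in Capza2+/- and 956.3 CPM in wild-type astrocytes, none of them at 0. The 7 choroid plexus markers summed to 555.3 CPM in Capza2+/- and 142.4 CPM in wild type, with Aqp1 at 0 in both. These markers were higher in Capza2+/- in all 12 classes, by log2 ratios between 1.02 in cluster 16 and 2.24 in oligodendrocyte precursors. The part of these other cells in the result was not tested.

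Grm7 in microglia had 33 UMIs in 32 Capza2+/- nuclei and 86 UMIs in 30 wild-type nuclei, or 69.0 CPM in Capza2+/- and 233 CPM in wild type, a log2 ratio of -1.76 (-2.38 to -1.16). A single wild-type nucleus held 52 of the 86 UMIs, and the remaining nuclei mostly held 1. Without the richest 3 nuclei in each library the levels were 61.3 CPM in Capza2+/- and 79.1 CPM in wild type, a ratio of -0.37 (-1.17 to 0.44). Grm5, the other member with enough UMIs in microglia, stood at 142.1 CPM in Capza2+/- and 195.1 CPM in wild type, a ratio of -0.46 (-0.96 to 0.04). The general excitatory markers in microglia summed to 1561 CPM in Capza2+/- and 1371 CPM in wild type.

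Grm3 in inhibitory nuclei had 142.7 CPM in Capza2+/- and 87.7 CPM in wild type, a log2 ratio of 0.70 (0.53 to 0.88). A single Capza2+/- nucleus held 151 of 643 UMIs, while the richest wild-type nucleus held 20 of 460. Without the richest 3 in each library the levels were 107.9 CPM in Capza2+/- and 80.5 CPM in wild type, and the ratio was 0.42 (0.23 to 0.62), under the limit but still above 0. The 9 oligodendrocyte markers, which belong to the class with the highest Grm3, summed to 307.4 CPM in Capza2+/- and 156.5 CPM in wild-type inhibitory nuclei, none of them at 0, a ratio of 0.97 (0.85 to 1.10). The part of oligodendrocyte RNA in this difference was not tested.

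Inhibitory nuclei were divided into sub-clusters on the Adarb2 side, on the Lhx6 side and on neither, the main developmental divisions of cortical and hippocampal interneurons. On the Lhx6 side, with 129 Capza2+/- and 160 wild-type nuclei, Grm3 stood at 111.3 CPM in Capza2+/- and 112 CPM in wild type, a log2 ratio of -0.01 (-0.32 to 0.30). On the Adarb2 side, with 78 Capza2+/- and 132 wild-type nuclei, it stood at 88.9 CPM in Capza2+/- and 32.4 CPM in wild type, a ratio of 1.46 (0.86 to 2.07) from 72 UMIs in Capza2+/- and 37 UMIs in wild type. Without the richest 3 nuclei of that side in each library it was 1.18 (0.46 to 1.92). The nuclei on neither side, 109 from Capza2+/- and 144 from wild type, had 180.6 CPM in Capza2+/- and 96.2 CPM in wild type, a ratio of 0.91 (0.67 to 1.15). They held the Capza2+/- nucleus with 151 UMIs, and without their richest 3 nuclei in each library the ratio was 0.49 (0.20 to 0.78). Over the sided nuclei alone, 207 from Capza2+/- and 292 from wild type, the ratio was 0.35 (0.08 to 0.62).

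Grm8 had ratios of opposite sign on the sides, a difference that was not tested. It was 463.2 CPM in Capza2+/- and 282.1 CPM in wild type on the Adarb2 side, a log2 ratio of 0.72 (0.50 to 0.93), or 0.78 (0.53 to 1.04) without the richest 3 nuclei. On the Lhx6 side it was 186 CPM in Capza2+/- and 236.9 CPM in wild type, a ratio of -0.35 (-0.58 to -0.12), or -0.61 (-0.90 to -0.33) without them. The class as a whole, at -0.07 (-0.19 to 0.06), lay between them. Grm7 was above 0 on both sides, at 0.17 (0.02 to 0.31) on the Adarb2 side and 0.42 (0.33 to 0.51) on the Lhx6 side. The Adarb2-side ratio of Grm7 was 0.02 (-0.14 to 0.18) without the richest 3 nuclei, and that of the Lhx6 side was 0.42 (0.33 to 0.52). The Lhx6-side sub-clusters differed in Grm7. That led by Mgat4c (34 Capza2+/- and 33 wild-type nuclei) had 2601 CPM in Capza2+/- and 2250 CPM in wild type, a ratio of 0.21. That led by Slit2 (31 and 54 nuclei) had 401 CPM in Capza2+/- and 231.3 CPM in wild type, a ratio of 0.79. Those led by Olfm3, Foxp2 and Cdh7 stood at 0.15, -0.95 and 0.28. The part of sub-cluster shares in the Lhx6-side ratio was not tested. For Grm7 a single Capza2+/- inhibitory nucleus held 891 of 5889 UMIs, and the class ratio of 0.26 (0.20 to 0.31) was 0.12 (0.06 to 0.17) without the richest 3 nuclei. On neither side Grm7 stood at 0.13 (0.06 to 0.20), or -0.20 (-0.29 to -0.11) without the richest 3 nuclei. The clusters of the class differed in sign for Grm7, which was not tested. Cluster 12, led by Kcnmb2, stood at 0.38 (0.32 to 0.44). Cluster 18, led by Vip, stood at -0.15 (-0.27 to -0.03) and cluster 19, led by Hapln1, at -0.90 (-1.20 to -0.60). Grm5 was 3035 CPM in Capza2+/- and 3070 CPM in wild type on the Lhx6 side. On the Adarb2 side it was 1511 CPM in Capza2+/- and 1344 CPM in wild type, so that Grm5 was over 2 times as high on the Lhx6 side in both libraries.

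**Figure D4:**
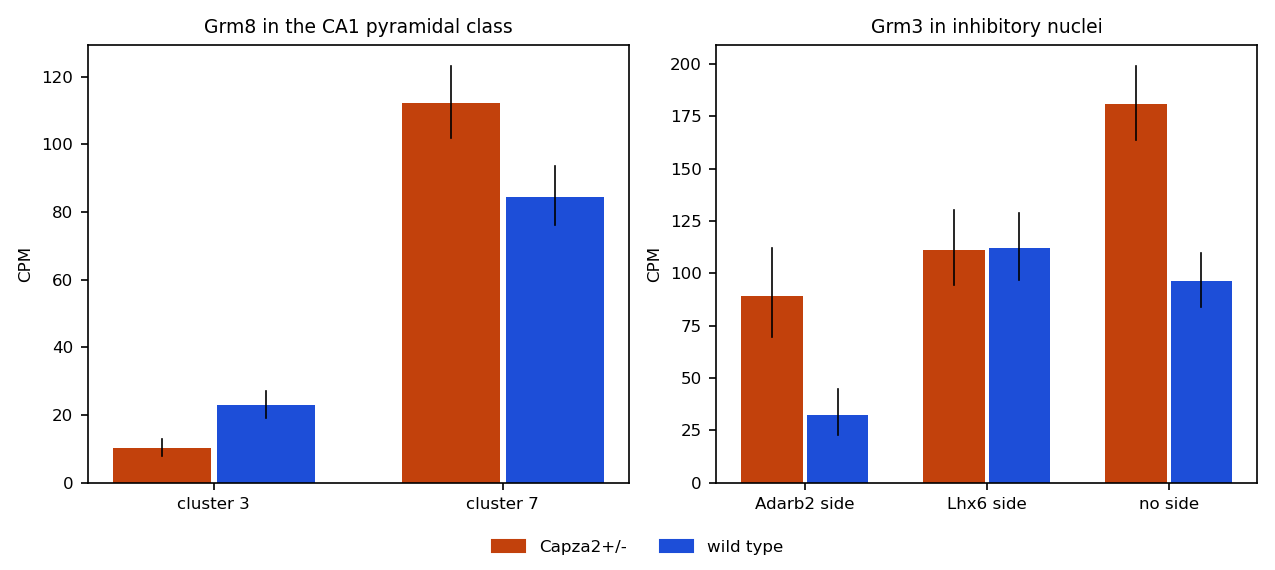
Levels in CPM of Grm8 in the clusters of the CA1 pyramidal class (left) and of Grm3 in inhibitory nuclei by side (right), with the Capza2+/- library (orange) left of the wild-type library (blue); bars are 95% Poisson intervals for counting error. Grm8 had 10.1 CPM in Capza2+/- and 22.8 CPM in wild type in cluster 3, against 112.2 CPM in Capza2+/- and 84.5 CPM in wild type in cluster 7, where 3 Capza2+/- nuclei held 148 UMIs, and Grm3 stood at 111.3 CPM in Capza2+/- and 112 CPM in wild type on the Lhx6 side.

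Counts of intervals on a side of 0 are given, here and further on, without the share of all genes, as descriptions only. Below the limit, Grm5 had intervals above 0 in 6 classes and below 0 in 1. The largest was in cluster 11, a log2 ratio of 0.15 (0.12 to 0.18), followed by CA3 at 0.10 (0.06 to 0.14) and cluster 16 at 0.09 (0.04 to 0.15). Without the richest 3 nuclei cluster 16 stood at -0.05 (-0.11 to 0.01) and cluster 8, which had been at 0.08, at 0.01 (-0.06 to 0.08). A single Capza2+/- nucleus held 334 of the 3230 Grm5 UMIs of cluster 8. Oligodendrocyte precursors were on the other side, at -0.21 (-0.33 to -0.09). That sign turned with the highest 10% of doublet scores removed (0.05) and with the libraries clustered separately (0.10). The precursor class was not the same set of nuclei there. The first setting gave a separate committed precursor cluster of 26 Capza2+/- and 24 wild-type nuclei. Separate clustering gave one of 20 nuclei in Capza2+/- only. In inhibitory nuclei Grm5 had 2743 CPM in Capza2+/- and 2741 CPM in wild type, a ratio of 0.00 (-0.03 to 0.04).

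Grm3 came nearest to the limit without passing it in cluster 8, where 583.1 CPM in Capza2+/- and 392.1 CPM in wild type gave a log2 ratio of 0.57 (0.44 to 0.71). Without the richest 3 nuclei in each library the ratio was 0.60 (0.46 to 0.74), just past 1.5-fold. The thinned share of nuclei with a UMI was 45.1% in Capza2+/- and 33.2% in wild type. Oligodendrocyte markers there summed to 238.1 CPM in Capza2+/- and 371.9 CPM in wild type, and the part of oligodendrocyte RNA in the difference was not tested. Cluster 11 went against cluster 8, with 126.7 CPM in Capza2+/- and 165.3 CPM in wild type and a ratio of -0.38 (-0.57 to -0.19). In the glia with the most Grm3, the ratio was -0.05 (-0.12 to 0.03) in oligodendrocytes and 0.08 (-0.02 to 0.17) in astrocytes.

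Grm7 had intervals above 0 in 4 classes and below 0 in 4. The neuronal ones above 0 were CA3 at 0.21 (0.17 to 0.25), dentate granule nuclei at 0.17 (0.15 to 0.20) and cluster 8 at 0.12 (0.07 to 0.17), beside the inhibitory class. Both granule clusters shared the sign, at 0.21 (0.18 to 0.24) and 0.17 (0.13 to 0.22). Of the inhibitory clusters, cluster 12 was above 0, while clusters 18 and 19 were below 0. Cluster 11 was below 0, at -0.15 (-0.19 to -0.10), and so were oligodendrocytes, at -0.17 (-0.27 to -0.07), and their precursors, at -0.47 (-0.63 to -0.31). In precursors 7.52% of all genes were 1.5-fold lower in Capza2+/-, the highest share of any class, and the dentate granule markers in them summed to 674 CPM in Capza2+/- and 992 CPM in wild type, whose part was not tested.

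Grm8 was lower in Capza2+/- in dentate granule nuclei, with a log2 ratio of -0.33 (-0.47 to -0.19). The granule clusters stood at -0.19 (-0.35 to -0.03) and -0.43 (-0.72 to -0.14), and without the richest 3 nuclei at -0.24 (-0.41 to -0.07) and -0.31 (-0.62 to 0.00). In cluster 10 it had 83.7 CPM in Capza2+/- and 115.4 CPM in wild type, a ratio of -0.46 (-0.67 to -0.26), which was -1.0 (-1.26 to -0.73) without the richest 3 nuclei. A single Capza2+/- nucleus there held 86 of 311 UMIs. In the clusters with the most Grm8 the ratios were small, -0.07 (-0.14 to -0.01) in cluster 11 and -0.03 (-0.12 to 0.07) in cluster 16.

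Grm8 in the CA1 class as a whole had a log2 ratio of 0.03 (-0.15 to 0.21). The richest 3 Capza2+/- nuclei held 148 of its 508 UMIs there, and without the richest 3 in each library the ratio was -0.26 (-0.46 to -0.05). Cluster 3, led by Galntl6, Stac and Nell1, had 10.1 CPM in Capza2+/- and 22.8 CPM in wild type, a ratio of -1.18 (-1.63 to -0.73) from 63 UMIs in Capza2+/- and 136 UMIs in wild type, and of -1.32 (-1.85 to -0.81) without the richest 3 nuclei. Cluster 7, led by Cpne7, Ndst3 and Man1a, had 112.2 CPM in Capza2+/- and 84.5 CPM in wild type, a ratio of 0.41 (0.21 to 0.61). It held those 148 UMIs, and without the richest 3 nuclei its ratio was 0.13 (-0.10 to 0.37). Grm3 stood at -0.34 (-0.53 to -0.15) in cluster 3 and 0.42 (0.21 to 0.63) in cluster 7, and without the richest 3 nuclei at -0.37 (-0.57 to -0.17) and 0.35 (0.13 to 0.57). The difference between the clusters was not tested, since cells of 1 library are not replicates.

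Grm2 and Grm4 had enough UMIs in 2 classes each. Grm2 stood at -0.13 (-0.33 to 0.08) in dentate granule nuclei and at -0.32 (-0.84 to 0.19) in cluster 8. Grm4 stood at -0.09 (-0.64 to 0.45) in cluster 8 and at -0.49 (-1.02 to 0.03) in cluster 16. All 4 intervals included 0, and 3 of them reached past 1.5-fold. Grm4 in cluster 16 stood at -0.59 (-1.18 to -0.02) without the richest 3 nuclei, an interval below 0 and a ratio just past 1.5-fold.

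**Figure D5:**
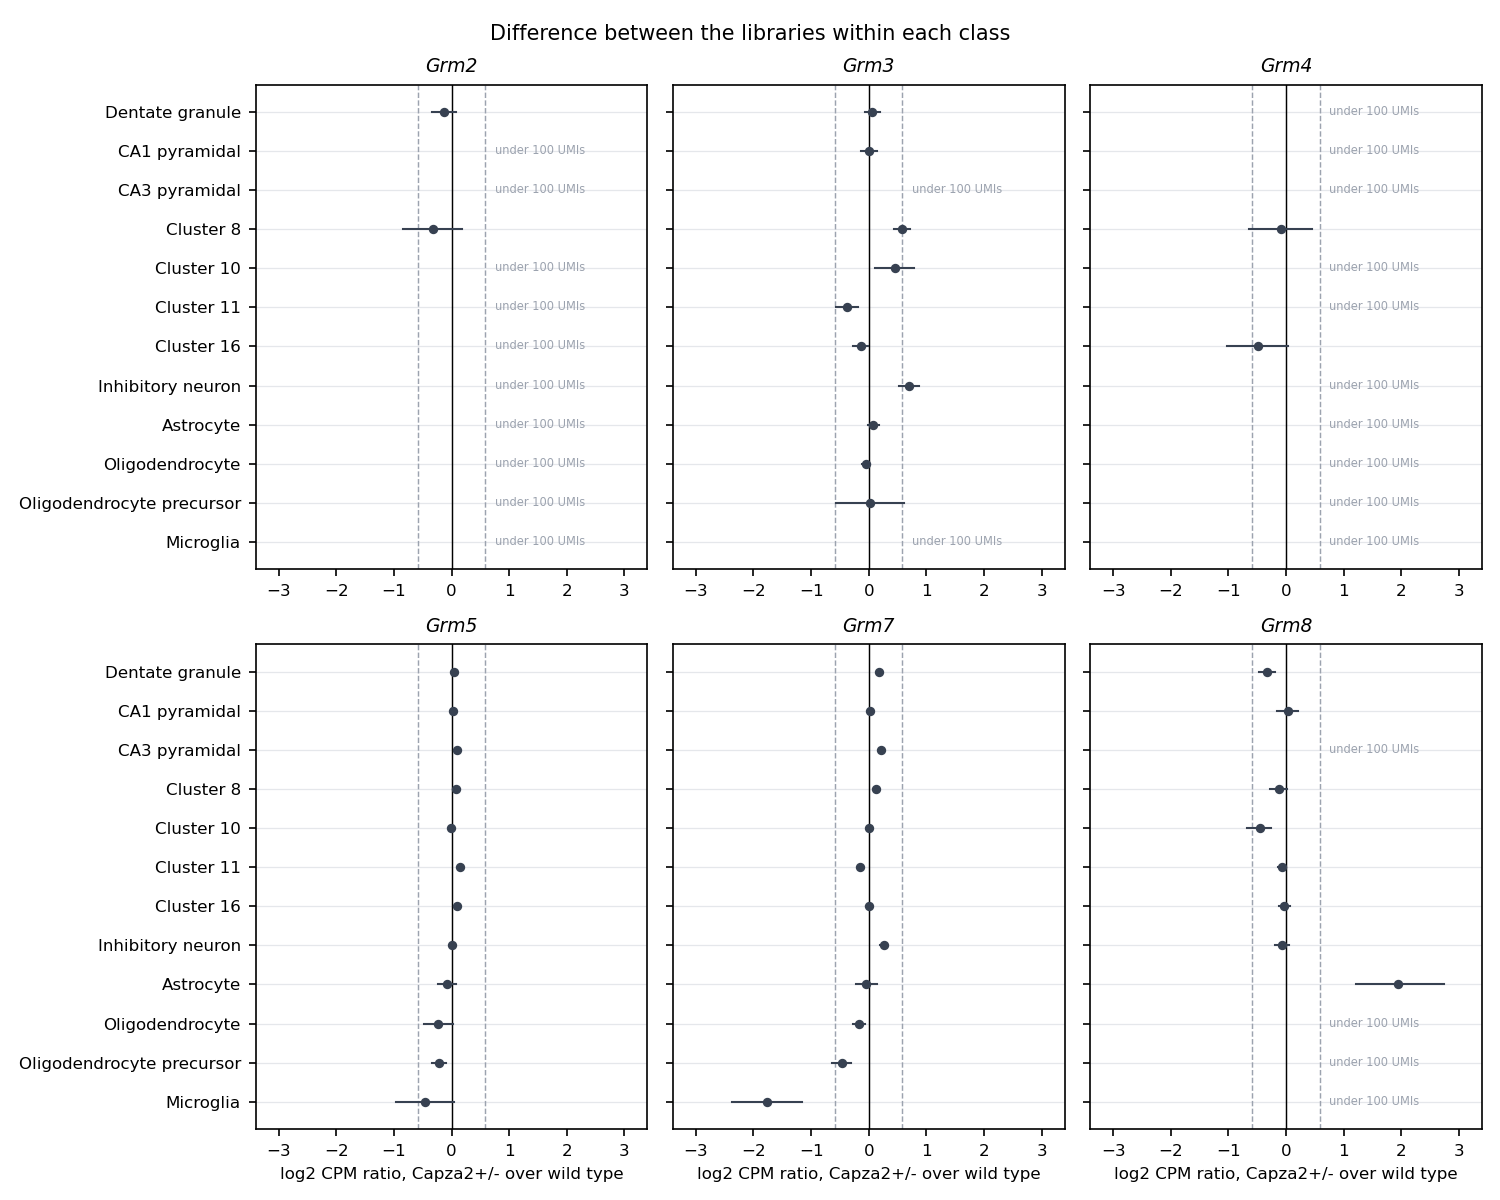
Log2 ratio of CPM, Capza2+/- over wild type, for each receptor gene in each of the 12 classes with at least 100 UMIs over both libraries; bars are 95% intervals for counting error and dashed lines mark 1.5-fold. The points past the lines were Grm3 in inhibitory nuclei (0.70), Grm8 in astrocytes (1.94) and Grm7 in microglia (-1.76).

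A coupling list of 42 genes held genes of the Gq and Gi/o sides, receptor partners and glutamate transport genes. All 42 had enough UMIs over all nuclei and none passed 1.5-fold. Their median log2 ratio was -0.04, against -0.01 for all genes, and 14 lay above 0. On the Gq side, 3 of 14 genes lay above 0 with a median of -0.07. Dagla, which makes the endocannabinoid released after Grm5 signalling, was highest at 0.20 (0.13 to 0.27), and Homer1, the scaffold of Grm5, lowest at -0.25 (-0.29 to -0.21). On the Gi/o side 6 of 15 lay above 0 with a median of -0.02, from Adcy3, an adenylyl cyclase, at -0.33 (-0.44 to -0.23) to Kcnj3 at 0.28 (0.26 to 0.30). Among receptor partners 1 of 7 lay above 0, Ncdn, which encodes the receptor-binding protein neurochondrin, at 0.23 (0.17 to 0.29), and Elfn1 was lowest at -0.42 (-0.61 to -0.24). Among 6 glutamate transport genes 4 lay above 0. The cystine-glutamate exchanger Slc7a11 was highest at 0.35 (0.22 to 0.49), and the vesicular transporter Slc17a6 lowest at -0.31 (-0.50 to -0.12).

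Kcnj3, a subunit of the G protein-gated potassium channels, was the only list gene whose interval lay on the same side of 0 in 8 of 8 neuronal classes. The share of all genes of which this holds is not given, and Kcnj3 was picked after its values were seen. Kcnj3 had 916.9 CPM in Capza2+/- and 756.5 CPM in wild type over all nuclei. Dentate granule nuclei had 1362 CPM in Capza2+/- and 1163 CPM in wild type. The log2 ratios in these classes lay between 0.17 in inhibitory nuclei and 0.40 in CA3, all above 0 and under 1.5-fold. In oligodendrocyte precursors it was lower in Capza2+/-, at 324.2 CPM in Capza2+/- and 520.2 CPM in wild type, a ratio of -0.68 (-0.92 to -0.45).

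Among the 12 classes, Homer1 had its highest level in CA1, 321 CPM in Capza2+/- and 336 CPM in wild type, and next in cluster 11, 262.4 CPM in Capza2+/- and 314.1 CPM in wild type, which were also the classes highest in Grm5. Its interval lay below 0 in 4 of 8 neuronal classes and above 0 in none; cluster 16 had the lowest ratio, -0.50 (-0.76 to -0.24), from 117.2 CPM in Capza2+/- and 165.6 CPM in wild type. Elfn1, which recruits Grm7 across the synapse, was an inhibitory gene with 49.7 CPM in Capza2+/- and 54.5 CPM in wild type. Its Lhx6-side nuclei had 107 CPM in Capza2+/- and 100.2 CPM in wild type, while CA1 nuclei had 1.08 CPM in Capza2+/- and 1.36 CPM in wild type. Within the inhibitory class its ratio was -0.13 (-0.39 to 0.12). Inhibitory nuclei made up 4.65% of Capza2+/- and 7.16% of wild-type nuclei, and the part of that share in the Elfn1 ratio over all nuclei was not tested. Its relative Elfn2 was spread more evenly, with 37.1 CPM in Capza2+/- and 31.1 CPM in wild type in oligodendrocyte precursors. In CA1 it had 21.9 CPM in Capza2+/- and 26.0 CPM in wild type, and in dentate granule nuclei 19.3 CPM in Capza2+/- and 20.0 CPM in wild type.

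By class, 13 of 345 pairs of a list gene and a class passed 1.5-fold, and 7 of the 13 were in oligodendrocyte precursors, where 21 list genes had enough UMIs. Slc1a3, a glial glutamate transporter, was the 1 that was higher there, at 0.64, and Kcnj6, Shank2, Adcy9, Adcy2, Adcy1 and Kcnj3 were lower. Of all genes in precursors, 5.68% were that much higher and 7.52% that much lower in Capza2+/-. Kcnj6, another channel subunit, had 29 UMIs in Capza2+/- and 173 UMIs in wild type, a log2 ratio of -2.22 (-2.84 to -1.64), and Shank2, a postsynaptic scaffold, stood at -1.36 (-2.04 to -0.72). Values without the richest nuclei are not given for list genes. For Grm7 the richest 10% of precursors held 42.3% of the UMIs in Capza2+/- and 59.2% in wild type. Dentate granule markers in precursors summed to 674 CPM in Capza2+/- and 992 CPM in wild type. The part of a few nuclei or of other cells in these ratios was not tested. Outside precursors the pairs past the limit were Plcb4 in dentate granule nuclei (1.03, where 0.917% of genes were that much higher) and 5 that were lower. These were Rgs4 in inhibitory nuclei (-0.68; 1.05%), Adcy9 in astrocytes (-0.70; 1.18%), Adcy3 and Grasp in CA3 (-0.73 and -0.61; 1.8%) and Slc1a3 in cluster 10 (-0.93; 2.97%).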

How the data were processed

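Nuclear RNA of mouse hippocampus was sequenced as 1 Capza2+/- and 1 wild-type single-nucleus library, made with 10x Genomics 3′ v3 chemistry per the labels' protocols. The deposited values are raw UMI counts per gene and barcode, which per the submitters' processing notes the authors made with Cell Ranger 7.1.0 on mm10. Whether intronic reads were counted was not stated in the labels. Coordinates are on GRCm38 from GENCODE M21, which held 32158 of the 32285 gene identifiers.

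The rest was computed with scanpy 1.11.5, leidenalg 0.10.2, numpy 2.4.6, scipy 1.17.1, pandas 2.3.3 and matplotlib 3.10.9 under Python 3.11.15. Barcodes with at least 500 genes and at most 5% mitochondrial UMIs were kept, which removed 7.56% in Capza2+/- and 1.35% in wild type. The highest Scrublet doublet scores were removed up to an expected 0.8% per 1000 barcodes, 416 Capza2+/- and 330 wild-type nuclei, because the automatic threshold marked 0.0416% and 10.9%. Kept nuclei held 55806845 and 53563957 UMIs. Both libraries were clustered together without integration (2000 variable genes, 30 principal components, 15 neighbours, resolution 1), leaving Capza2 and the receptor genes out of the variable genes. The rule for naming clusters from marker lists was revised after the clusters were seen. Clusters mixing types (264 and 211 nuclei) or unnamed (300 and 90) entered the sums over all nuclei only.

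A ratio is CPM in Capza2+/- over CPM in wild type on the log2 scale, with an exact conditional binomial interval, a calculation tested on simulated data. Ratios with classes weighted alike instead have a normal-approximation interval from the Poisson variance of the weighted levels. Levels have Poisson and shares Clopper-Pearson intervals. A gene was compared from 100 UMIs over both libraries and called past 1.5-fold; no test between genotypes was made. Named genes are the 6 members, the highest and lowest gene of each part of the coupling list with Homer1, Elfn1 and Elfn2, the 5 genes most like each member, and Capza2; other coupling genes are named where they passed the limit, and Kcnj3 was described by class after its values were seen. The members and all lists were chosen with earlier results of these data known. Other genes of the family are not analysed here.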

Additional observations from a re-analysis of the deposited data

Results flagged for a closer look

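Each of 4 members stood above 0 in 1 class and below 0 in another, with intervals for counting error that lay on opposite sides of 0. With 1 library per genotype these differences between classes were not tested. The class with the highest and the class with the lowest such ratio are given for each member as log2 ratios of CPM, Capza2+/- over wild type.

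Grm3 stood at 0.70 in inhibitory nuclei and at -0.38 in cluster 11. Grm5 stood at 0.15 in cluster 11 and at -0.21 in oligodendrocyte precursors, where it was 0.05 with the highest 10% of doublet scores removed and 0.10 with the libraries clustered separately. Both settings changed which nuclei the precursor class held. Grm7 stood at 0.26 in inhibitory nuclei and at -1.76 in microglia. Of the inhibitory clusters, Grm7 was at 0.38 in cluster 12, -0.15 in cluster 18 and -0.90 in cluster 19. Grm8 stood at 1.94 in astrocytes and at -0.46 in cluster 10. Without the 3 nuclei richest in the gene in each library, Grm8 in astrocytes was -0.78, Grm7 in microglia -0.37, Grm3 in inhibitory nuclei 0.42, Grm7 in inhibitory nuclei 0.12 and Grm8 in cluster 10 -1.0.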

How the results depend on the processing

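No paired analysis was possible because there is 1 library per genotype. All values are log2 ratios, either Capza2+/- over wild type or, for the peak, of a member's highest class over all other nuclei. With doublets kept, Grm3 over all nuclei was 0.13, the peaks of Grm3 and Grm7 were 3.06 and 0.74, and Grm8 in astrocytes was -0.41. With the highest 10% of doublet scores removed, the peaks of Grm3 and Grm7 were 3.20 and 0.81, Grm7 and Grm8 with classes weighted alike were 0.09 and -0.17, and Grm5 in precursors was 0.05. From 1000 genes per barcode the Grm5 peak was 1.01; at most 1% mitochondrial UMIs gave it 1.09 and Grm8 weighted alike -0.21.

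Thinned to 1000 UMIs, Grm2, Grm3, Grm4, Grm5, Grm7 and Grm8 over all nuclei were 0.31, 0.19, -1.20, -0.15, 0.00 and -0.66. Weighted alike, Grm2, Grm4, Grm5 and Grm8 were then 0.15, -0.57, 0.02 and -0.19, and the peaks of Grm2, Grm3, Grm5, Grm7 and Grm8 were 1.30, 2.74, 1.37, 1.07 and 3.09. Signs turned for Grm3 in cluster 10 (-1.58), Grm5 in CA1 (-0.02), cluster 8 (-0.05) and CA3 (-0.05), and Grm8 in astrocytes (-0.69) and cluster 11 (0.11). With every nucleus weighted alike, Grm3, Grm4, Grm5, Grm7 and Grm8 over all nuclei were 0.17, -0.86, -0.16, -0.05 and -0.65, the peaks of Grm3, Grm4, Grm5, Grm7 and Grm8 were 2.76, 3.37, 1.38, 1.13 and 3.09, and Grm3 and Grm5 in cluster 16 and Grm8 in cluster 11 were 0.00, -0.01 and 0.02.

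At resolution 2, Grm3 in cluster 10 was -0.01, the peaks of Grm5 and Grm8 were 0.73 and 2.47, Grm8 weighted alike was -0.17 and Grm8 in astrocytes -0.52. With libraries clustered separately, Grm3 in cluster 16 was 0.17, Grm5 in cluster 8, precursors and cluster 16 was -0.18, 0.10 and -0.03, the peaks of Grm4 and Grm7 were 2.72 and 0.67, and Grm5 and Grm7 weighted alike were 0.02 and 0.05. The Capza2+/- match of cluster 16 then held 215 nuclei, against 116 in the main clustering. Hs3st4 and Etl4, leading genes of cluster 17, also led it. Its ratios thus compare unlike sets of nuclei. Precursors were also not the same set as in the main clustering, here and with the highest 10% of doublet scores removed. Scaled to a median ratio of 0, Grm5 and Grm7 weighted alike were 0.06 and 0.09. Without the richest 3 nuclei, an alternative added after seeing the data, Grm5 in cluster 16 was -0.05 and Grm8 in astrocytes and CA1 -0.78 and -0.26. A floor of 30 UMIs gave 5 calls among 57 member pairs and 28 among 435 list pairs. A floor of 500 gave 1 among 38 member pairs and 1 among 193 list pairs, and 2-fold gave 5 among 345 list pairs. The shares of all genes called at these settings are not given, so nothing is read from these counts. The causes were not tested, except that a floor changes which genes are compared.

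Few nuclei held a UMI of Grm2 or Grm4 after thinning, so no change is read from it. Classes with no matching cluster gave no value under the highest 10% setting and separate clustering.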

Other observations

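Some classes were too small to compare. Cajal-Retzius nuclei, 37 in Capza2+/- and 30 in wild type, held 7 UMIs of Grm5 in Capza2+/- and 57 in wild type, or 78.8 CPM in Capza2+/- and 722.6 CPM in wild type. Their Grm7 stood at 101.3 CPM in Capza2+/- (9 UMIs) and 494.4 CPM in wild type (39 UMIs). The richest 10% of the wild-type nuclei held 89.5% of those Grm5 UMIs and 89.7% of those of Grm7, and the thinned Grm5 share, 11.1% in Capza2+/- and 13.8% in wild type, was near the microglial one. They held no UMI of Grm4 in either library. The choroid plexus class, with 63 nuclei in Capza2+/- and 30 in wild type, had 960 CPM of Grm8 in Capza2+/- and 1097 CPM in wild type, a level near that of cluster 11. Its Grm5 stood at 2812 CPM in Capza2+/- and 3478 CPM in wild type, and its nuclei had 2.16 times the mean doublet score of all nuclei.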
